A study of Mus musculus with 16 samples.

Results

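The genes described here are 10 genes of muscle calcium handling, out of 21887 protein-coding genes (autosomes, X and Y), followed through H3K4me3 and H3K27me3 in mouse muscle stem cells. They were chosen by name, and each was read over its RefSeq gene record plus 10 kb on either side. They are the calcium release channels Ryr1 and Ryr3, the voltage sensor Cacna1s, the calcium pumps Atp2a1 and Atp2a2, the store proteins Casq1 and Casq2, the junction proteins Trdn and Jph1, and the cytosolic buffer Pvalb. The data came from C57BL/6 skeletal muscle, from stem cells labelled QSC for quiescent or ASC for activated. Each mark in each state had 2 immunoprecipitated samples and 2 input samples, 16 samples in all, 8 of them immunoprecipitated. The sources used here do not give the isolation, the activation, the animals' age and sex, or whether separate animals supplied the replicates.

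In a muscle fibre, depolarisation of the transverse tubule moves the voltage sensor, which opens the ryanodine receptor of the facing sarcoplasmic reticulum and releases calcium to the myofilaments. SERCA pumps return the calcium, calsequestrins hold it inside the store, and junctional proteins keep the membranes apposed. H3K4me3 is a histone mark found at the starts of active and poised genes, and H3K27me3 is the mark set by Polycomb repressive complex and found over repressed genes. Neither mark measures RNA.

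The values are peaks of 8 lists, since the peaks of each mark were called in a narrow and in a broad form for QSC and for ASC. The labels attach a list to both replicates of its group, and it was treated as pooled, so no difference between QSC and ASC below has a replicate check, an error or a test. H3K4me3 was read from the narrow lists, of 14354 peaks in QSC and 15869 in ASC. H3K27me3 was read from the broad lists, of 130668 and 95819 peaks. The fold of a peak is the authors' linear enrichment over background, and it is used only to place a peak within its own list. The median fold of the H3K4me3 narrow list was 10.4 in QSC and 16.3 in ASC. Most H3K27me3 broad peaks were weak, with 3.85% of those in QSC and 8.51% of those in ASC at a q-value of at most 0.05. Read depth is unknown from these files.

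The labelled cell type was checked on marker genes, counting a gene as marked when a peak lay within 1 kb of its start. All 10 satellite cell markers, Pax7, Myf5 and Myod1 among them, had H3K4me3 in both states. Of 12 muscle fibre markers, 0 had H3K4me3 in QSC and 1 in ASC, the sarcomere gene Ttn with a fold of 7.22. H3K4me3 marked 0 of 7 immune markers in both states, 2 and 3 of 6 endothelial markers in QSC and ASC, 0 and 3 of 6 fibro-adipogenic markers, 4 and 2 of 6 pericyte and smooth muscle markers, and 2 of 4 Schwann markers in both states. It also marked 7 of 8 genes used by nearly all cells in both states. These counts are of narrow peaks, which marked 54.4% of all genes in QSC and 57.0% in ASC. The broad H3K4me3 lists marked 68.3% of all genes in QSC and 62.7% in ASC. They marked all 10 satellite cell markers in both states, and 8 and 7 of 8 genes used by nearly all cells. In QSC and ASC they marked 5 and 4 of 6 endothelial markers and 5 and 5 of 6 fibro-adipogenic markers. Of 6 pericyte and smooth muscle markers they marked 5 and 6, and of 4 Schwann markers 2 and 2. They marked 2 and 4 of the fibre markers, of which Mylpf was the strongest (folds of 5.52 and 9.57). Of the immune markers they marked 1 and 3, of which Cd68 was the strongest (5.48 and 7.32). Neither of these starts had a narrow peak within 1 kb. The broad domains, merged over gaps of up to 1 kb, measured 5700 and 9814 bp at Mylpf and 16349 and 15335 bp at Cd68. At a −log10 q of at least 5, 1 of 8241 broad peaks in QSC and 0 of 11241 in ASC overlapped no narrow peak. Whether these domains belong to neighbouring genes was not tested. The part of other cell types in the values below was not tested.

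The 10 genes divided into 4 patterns at their starts, and no gene changed pattern between the states. Ryr1, Atp2a1, Atp2a2 and Jph1 had H3K4me3 and no H3K27me3 in QSC and in ASC, a pattern of 39.6% of all protein-coding genes. Cacna1s, Casq2 and Pvalb had H3K27me3 and no H3K4me3 in both states, as had 16.5% of all genes. Ryr3 had both marks in both states, a pattern of 7.68% of all genes, and Casq1 and Trdn had neither mark, as had 20.2%. A start call means that a peak overlapped by at least 1 bp the 1 kb on either side of the start. For 6 of the 10 genes the start came from the RefSeq promoter table. For Ryr3, Atp2a2, Trdn and Jph1, which have no entry there, both ends of the record were read. The same was done for every other gene without an entry, in the background and in the other gene lists. For such genes a peak at either end counts as a start call. Of all genes, 79.9% have an entry.

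By mark, H3K4me3 was called at the start of 5 of the 10 genes in QSC, beside 54.4% of all genes. It was called at 5 in ASC, beside 57.0%. No gene of the 10 was called in QSC only (0.736% of all genes) or in ASC only (3.29%). H3K27me3 was called at the start of 4 genes in both states, beside 30.3% of all genes in QSC and 35.5% in ASC. Again 0 genes were called in QSC only (3.64% of all genes) or in ASC only (8.85%). The counts over the 10 genes lay near these shares. Both marks met at the start of 1 gene in each state, beside 9.41% and 15.0% of all genes. Neither was called at 2 genes, beside 24.7% and 22.5%. With the narrow H3K27me3 lists, both marks again met at Ryr3 alone of the 10, beside 3.1% and 7.27% of all genes.

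The broad H3K4me3 lists, whose peaks are mostly weak in QSC, gave start calls at 6 of the 10 genes in QSC and 7 in ASC, beside 68.3% and 62.7% of all genes. The 5 genes with narrow peaks were among them in both states. The others were Casq2 in QSC only (8.06% of all genes) and Casq1 and Pvalb in ASC only (2.4%). These added peaks had folds between 1.56 and 1.94 and q-values above 0.05. Over the gene and its flanks the broad lists called 9 genes in each state, beside 90.6% and 73.6%, with Casq2 in QSC only (17.5%) and Pvalb in ASC only (0.557%).

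**Figure D1:**
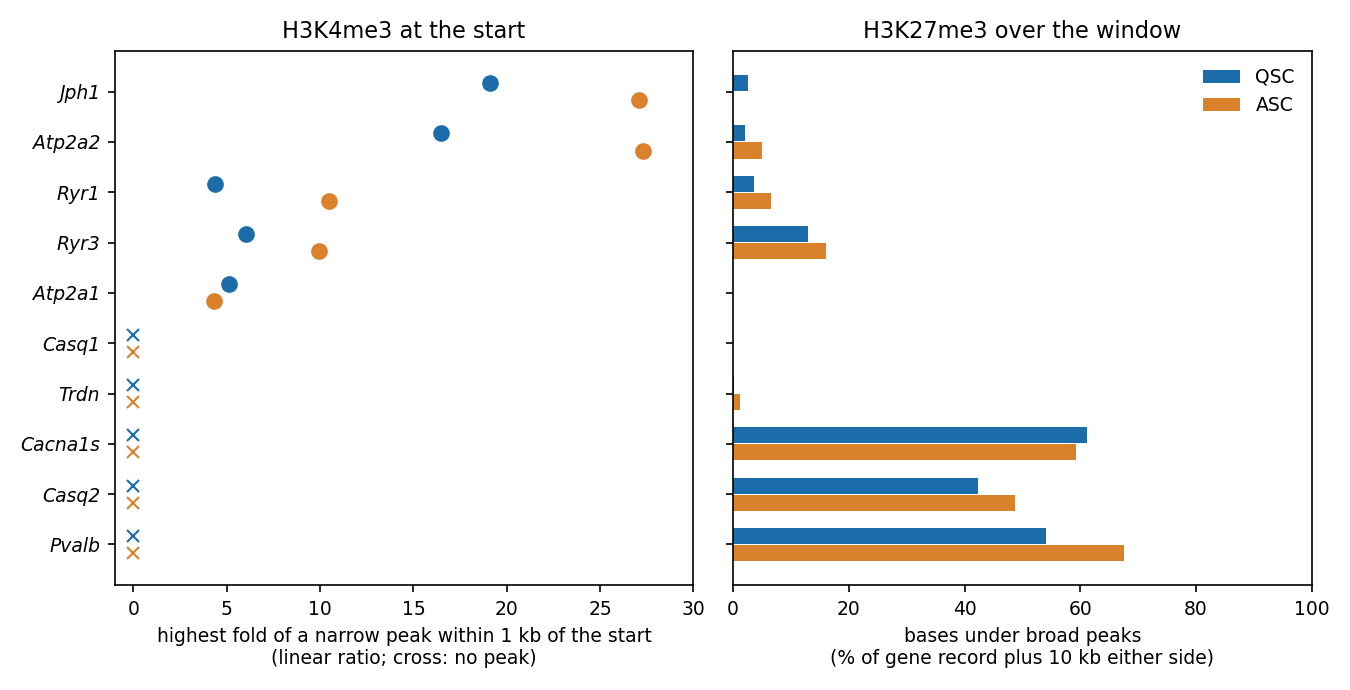
H3K4me3 at the start as the highest fold of a narrow peak within 1 kb (left, linear ratio; a cross stands for no peak) and H3K27me3 as the percent of the gene record plus 10 kb either side that lies under broad peaks (right), for each gene in the pooled QSC and ASC lists. Jph1 and Atp2a2 have the highest folds in both lists, and Cacna1s, Casq2 and Pvalb, which have no H3K4me3 narrow peak, have the largest shares of bases under H3K27me3.

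The voltage sensor gene Cacna1s, which encodes the pore-forming subunit of the skeletal muscle L-type channel, lay under H3K27me3 and had no H3K4me3 narrow peak anywhere in its window. Its record is at chr1:136052806-136119822 on the plus strand (mm10), 67017 bp long. H3K27me3 broad peaks covered 53146 bp or 61.1% of the gene with its flanks in QSC, in 13 peaks. They covered 51629 bp or 59.3% in ASC, in 7 peaks. These shares exceeded those of 88.3% and 85.2% of all genes. The peak over the start had a fold of 3.0 in QSC (−log10 q of 2.3) and 2.56 in ASC (−log10 q of 2.51), above the fold of 99.1% and 96.4% of the peaks of its list.

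The strongest H3K27me3 at Cacna1s lay next to it, within 1 kb of the start of Ascl5, a neighbouring gene of the achaete-scute family of transcription factors. The narrow peak there ran from 136048244 to 136051273 in QSC with a fold of 5.74 and from 136048579 to 136051277 in ASC with a fold of 6.95. It ended 1538 bp from the Cacna1s start in QSC and 1534 bp in ASC. In both states the broad peak over the Cacna1s start also came within 1 kb of the start of Ascl5. Inside the gene the narrow lists held 3 H3K27me3 peaks in QSC, with folds of 4.3, 4.02 and 3.81, and 2 in ASC, both with a fold of 3.07. No narrow H3K27me3 peak reached the start of Cacna1s itself.

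Ryr1 encodes the calcium release channel of the skeletal muscle triad, at chr7:29003340-29125179 on the minus strand. It had H3K4me3 at its start in both states. The start peak ran from 29124274 to 29125147 in QSC, 874 bp with a fold of 4.39 (−log10 q of 6.51). In ASC it ran from 29124238 to 29125317, 1080 bp with a fold of 10.5 (−log10 q of 39.8). The QSC peak stood above 9.3% of its list and the ASC peak above 33.7% of its own, so both were in the lower part. Of the 300 promoter bases, 250 before the start to 50 after it, 46 lay under the peak in QSC and 216 in ASC.

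Ryr1 also carried H3K4me3 deep inside its record, at a pair of sites that have no other gene's start within 1 kb. Their summits lay 84921 and 81912 bp from the Ryr1 start in QSC and 84696 and 81635 bp in ASC. In QSC the farther one, from 29039851 to 29041242, had a fold of 7.98 (−log10 q of 19.2) and the nearer one a fold of 4.35. In ASC the same places held peaks with folds of 5.06 (−log10 q of 10.8) and 4.33. The order within the lists therefore differed. In QSC an internal peak was the highest of the 4 H3K4me3 peaks in the window, and in ASC the start peak was the highest of 3. The fourth QSC peak, past the far end of the record, had a fold of 3.57. H3K27me3 covered 3.71% of the window in QSC and 6.59% in ASC, below the gene medians of 9.01% and 10.2%. The broad peak with the highest fold, 2.42 in QSC and 2.73 in ASC, lay within 1 kb of an end of the neighbouring Rasgrp4 record and reached only partly into the window. Inside the Ryr1 record the longest broad peak had 2189 bp (fold 1.8) in QSC and 4989 bp (fold 1.76) in ASC, and no H3K27me3 was called at the Ryr1 start. Narrow H3K27me3 peaks lay in the window of 4 genes in QSC and 5 in ASC, beside 34.3% and 41.2% of all genes, with 0 in QSC only (3.45%). Ryr1 was the single gene of the 10 with such a peak in ASC only (10.4% of all genes), through the Rasgrp4 peak with a fold of 6.75.

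**Figure D2:**
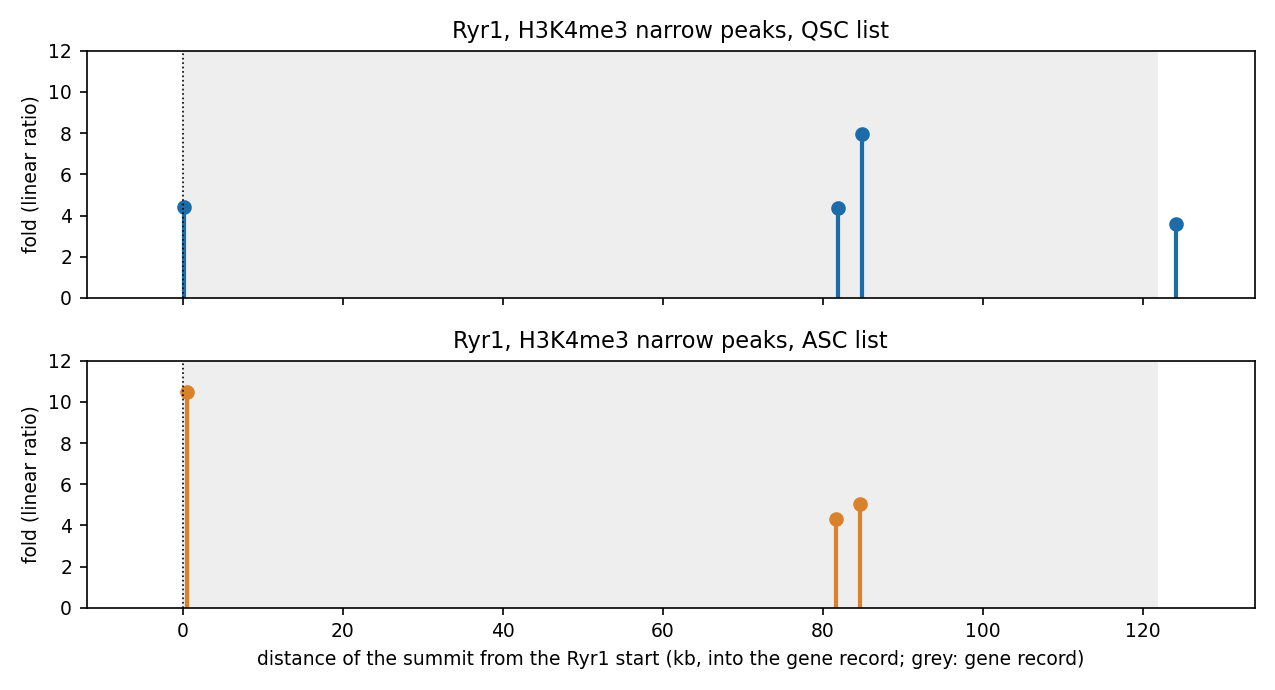
H3K4me3 narrow peaks of Ryr1 in the QSC list (top) and the ASC list (bottom), with the distance of each summit from the start in kb on the x axis and the authors' fold on the y axis; grey marks the gene record and the dotted line the start. The internal peak of fold 7.98 is the highest in QSC and the start peak of fold 10.5 is the highest in ASC.

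Ryr3 encodes the ryanodine receptor isoform that accompanies Ryr1 in some muscles and is also found in the nervous system. Its record, chr2:112631354-113217405, is the longest of the 10 at 586052 bp. It was the only gene of the 10 with both marks, at the higher-coordinate end of the record. The H3K4me3 peak ran from 113216231 to 113217518 in QSC (1288 bp, fold 6.05) and from 113215897 to 113217552 in ASC (1656 bp, fold 9.93). The H3K27me3 broad peak at this end had a fold of 2.2 in QSC (−log10 q of 0.874) and 2.17 in ASC (−log10 q of 1.26), so its q-value was above 0.05 in both.

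The narrow H3K27me3 peaks at Ryr3 flanked the H3K4me3 peak. In QSC they were at 113215805-113216349, 113218294-113218942 and 113219901-113220438, with folds of 3.44, 3.44 and 4.02. In ASC there were 4, at 113213679-113214493, 113214751-113215618, 113217795-113218653 and 113218809-113220236, with folds of 5.11, 3.88, 4.29 and 4.29. Of the H3K4me3 bases, 119 in QSC and 0 in ASC lay under a narrow H3K27me3 peak. Among all genes with both marks at the start, those whose narrow peaks shared no base were 43.8% of 678 in QSC and 18.0% of 1591 in ASC. The broad list gave another picture, with 344 of 1288 bases shared in QSC and 1656 of 1656 in ASC. A single broad peak of 23334 bp spanned the start in ASC, where QSC had several shorter ones. Over the whole window H3K27me3 covered 12.9% in QSC and 16.0% in ASC, in 49 and 29 peaks.

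The junction protein gene Jph1 and the pump gene Atp2a2 had the highest H3K4me3 of the 10. Jph1, at chr1:16942104-17097922, encodes junctophilin 1, which tethers the transverse tubule to the sarcoplasmic reticulum. Its start peak had a fold of 19.1 in QSC (−log10 q of 75.1) and 27.1 in ASC (−log10 q of 163), above 92.7% and 77.3% of the peaks of the lists. H3K27me3 covered 4477 bp of its window in QSC, in 3 peaks with folds up to 1.73, and 0 bp in ASC. That made Jph1 the single gene of the 10 with an H3K27me3 window call in one state, beside 6.62% of all genes called in QSC only. In ASC only, 0 of the 10 were called, beside 4.95%. None of the 3 peaks reached a q-value of 0.05, and none lay within 1 kb of the start.

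Atp2a2 encodes SERCA2, the pump of slow muscle, heart and, in a second isoform, of most other cells. Its record is chr5:122453513-122502225. A pair of H3K4me3 peaks lay at the higher-coordinate end in each state. Their folds were 16.5 and 10.9 in QSC, and 27.3 and 18.2 in ASC. Merged over gaps of up to 1 kb they formed the longest H3K4me3 start domain of the 10 genes, 3158 bp in QSC and 4723 bp in ASC. H3K27me3 covered 2.14% of the window in QSC and 5.08% in ASC and was not called at the start.

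Atp2a1 encodes SERCA1, the fast muscle pump, at chr7:126445858-126463103 on the minus strand. Its H3K4me3 was low and was the only H3K4me3 start domain of the 10 that was shorter in ASC. The peak had a fold of 5.13 in QSC (−log10 q of 9.32, 126461776 to 126463844) and 4.33 in ASC (−log10 q of 7.81, 126462064 to 126463327). It stood above 15.6% and 6.21% of the peaks of its list. In both states it covered all 300 bases of the promoter, and H3K27me3 was absent from the window in all 4 lists of that mark.

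The Atp2a1 promoter is shown because H3K4me3 covered it although it holds few CpG dinucleotides, beside the promoter of Casq1, which has as many and no peak. Sequences are RefSeq promoters on GRCm38.p6, the build that mm10 names, 5′ to 3′ on the gene's strand, with CpG dinucleotides in capitals. The first is chr7:126463024-126463323 (minus) and the second chr1:172219846-172220145 (minus).
Atp2a1: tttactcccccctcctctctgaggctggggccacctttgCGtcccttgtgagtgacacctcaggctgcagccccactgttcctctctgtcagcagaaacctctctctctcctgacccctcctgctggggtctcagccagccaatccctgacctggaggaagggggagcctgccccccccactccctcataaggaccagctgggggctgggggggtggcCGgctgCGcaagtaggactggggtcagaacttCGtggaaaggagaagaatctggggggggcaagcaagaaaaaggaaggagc
Casq1: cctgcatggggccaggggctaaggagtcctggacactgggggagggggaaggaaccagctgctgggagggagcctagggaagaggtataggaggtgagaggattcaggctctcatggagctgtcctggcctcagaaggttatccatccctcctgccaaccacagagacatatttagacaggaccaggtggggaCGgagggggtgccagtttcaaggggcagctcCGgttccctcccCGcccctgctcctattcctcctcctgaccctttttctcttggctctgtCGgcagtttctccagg
Each holds 4 CpG, fewer than the median of 13 over 21255 promoters of the table, and 23.9% of promoters hold fewer. The observed over expected CpG ratio was 0.14 for Atp2a1 and 0.15 for Casq1. Among the 11052 promoters with a ratio below 0.6, an H3K4me3 narrow peak overlapped 19.3% in QSC and 21.6% in ASC. At 0.6 or above, among 10203 promoters, it overlapped 87.2% and 90.0%. Atp2a1 was thus among the smaller share of CpG-poor promoters under H3K4me3. Ryr1, with 9 CpG and a ratio of 0.37, was CpG-poor as well.

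Casq1, the calsequestrin of fast fibres, at chr1:172209894-172219895 (minus), carried neither mark at its start in the lists used. Its window nevertheless counts as called for H3K4me3, with a fold of 16.5 in QSC and 22.6 in ASC. That peak lies in the flank, within 1 kb of the starts of Pea15a and Gm17224, 12661 bp from the Casq1 start in QSC and 12660 bp in ASC. H3K27me3 covered 0 bp of the Casq1 window. In the ASC broad list of H3K4me3 there were 2 weak peaks within 1 kb of the start, with folds of 1.64 and 1.56 and a −log10 q of at most 0.00117.

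Trdn, at chr10:33083483-33476709, encodes triadin, which links calsequestrin to the ryanodine receptor. It had no H3K4me3 narrow peak and no narrow H3K27me3 peak in its 413227 bp window. H3K27me3 broad peaks covered 894 bp (0.216%) in QSC and 4807 bp (1.16%) in ASC, with folds up to 2.06 and 1.65. The broad H3K4me3 list held 32 peaks over it in QSC (7.58% of the window) and 2 in ASC (0.604%), and the highest −log10 q among them was 0.245. No peak of either mark at Trdn thus had a q-value of at most 0.05.

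Casq2, the calsequestrin of heart and slow fibres, at chr3:102086415-102146514 (plus), had H3K27me3 over its start in both states and no H3K4me3 narrow peak. Broad peaks covered 42.3% of its window in QSC and 48.8% in ASC, more than in 80.7% and 81.0% of all genes. The start peak had a fold of 2.28 (−log10 q of 0.983) and 8862 bp in QSC, and a fold of 2.35 (−log10 q of 1.65) and 11857 bp in ASC. In the narrow list QSC held 1 peak, from 102087632 to 102088471, which lay 1217 bp from the start. ASC held 4, with folds of 3.07, 3.45, 4.91 and 4.29, the closest of them 724 bp from the start. Casq2 was thus the single gene of the 10 with a narrow H3K27me3 start call in ASC only, beside 7.0% of all genes, and 0 had one in QSC only, beside 0.923%. Narrow start calls numbered 2 of the 10 genes in QSC and 3 in ASC, beside 10.6% and 16.6% of all genes.

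Pvalb encodes parvalbumin, the soluble calcium buffer of fast fibres and of some neurons, at chr15:78191112-78206400 (minus). It had the largest share of its window under H3K27me3 in ASC, 67.5%, and 54.1% in QSC. These shares exceeded those of 88.2% and 85.7% of all genes. In QSC the narrow list held 2 peaks inside the record, of 608 and 931 bp with folds of 4.19 and 4.88. In ASC it held 1 peak of 4012 bp, from 78200735 to 78204746, with a fold of 7.77 (−log10 q of 20.9), above 95.8% of the peaks of its list. The broad peak there had a fold of 2.57 in QSC and 3.61 in ASC. Its −log10 q was 1.53 in QSC and 5.35 in ASC.

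RefSeq gives Pvalb a pair of starts, and H3K27me3 lay at the inner one. Their promoters are shown because the narrow peak of ASC covered all 300 bases of the inner promoter and none of the outer one. The outer promoter is chr15:78206351-78206650 and the inner one chr15:78204188-78204487, both minus, from the same source and with CpG dinucleotides in capitals.
Pvalb start 1: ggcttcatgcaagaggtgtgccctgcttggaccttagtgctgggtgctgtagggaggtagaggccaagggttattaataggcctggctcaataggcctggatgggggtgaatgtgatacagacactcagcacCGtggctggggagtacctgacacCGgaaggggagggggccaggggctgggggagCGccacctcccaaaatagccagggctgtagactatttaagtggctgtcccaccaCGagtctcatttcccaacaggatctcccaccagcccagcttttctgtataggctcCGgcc
Pvalb start 2: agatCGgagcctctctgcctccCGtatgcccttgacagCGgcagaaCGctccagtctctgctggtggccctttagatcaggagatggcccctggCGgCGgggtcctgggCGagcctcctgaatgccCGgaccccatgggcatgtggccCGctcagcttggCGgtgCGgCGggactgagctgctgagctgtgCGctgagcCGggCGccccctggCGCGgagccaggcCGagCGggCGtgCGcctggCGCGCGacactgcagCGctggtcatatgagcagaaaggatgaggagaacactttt
The outer promoter holds 5 CpG (ratio 0.2) and the inner one 25 (ratio 0.73), more than in 75.2% of promoters. In QSC neither promoter was covered by H3K27me3, whose nearest broad peak ended 511 bp from the inner start. In ASC the broad peak also covered the whole inner promoter. The broad H3K4me3 list of ASC held a weak peak of 544 bp there (fold 1.94, −log10 q of 0.516), while the narrow list held none. Among all promoters with a ratio of at least 0.6, an H3K27me3 broad peak overlapped 11.3% in QSC and 14.9% in ASC, and among the others 25.4% and 31.5%.

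**Figure D3:**
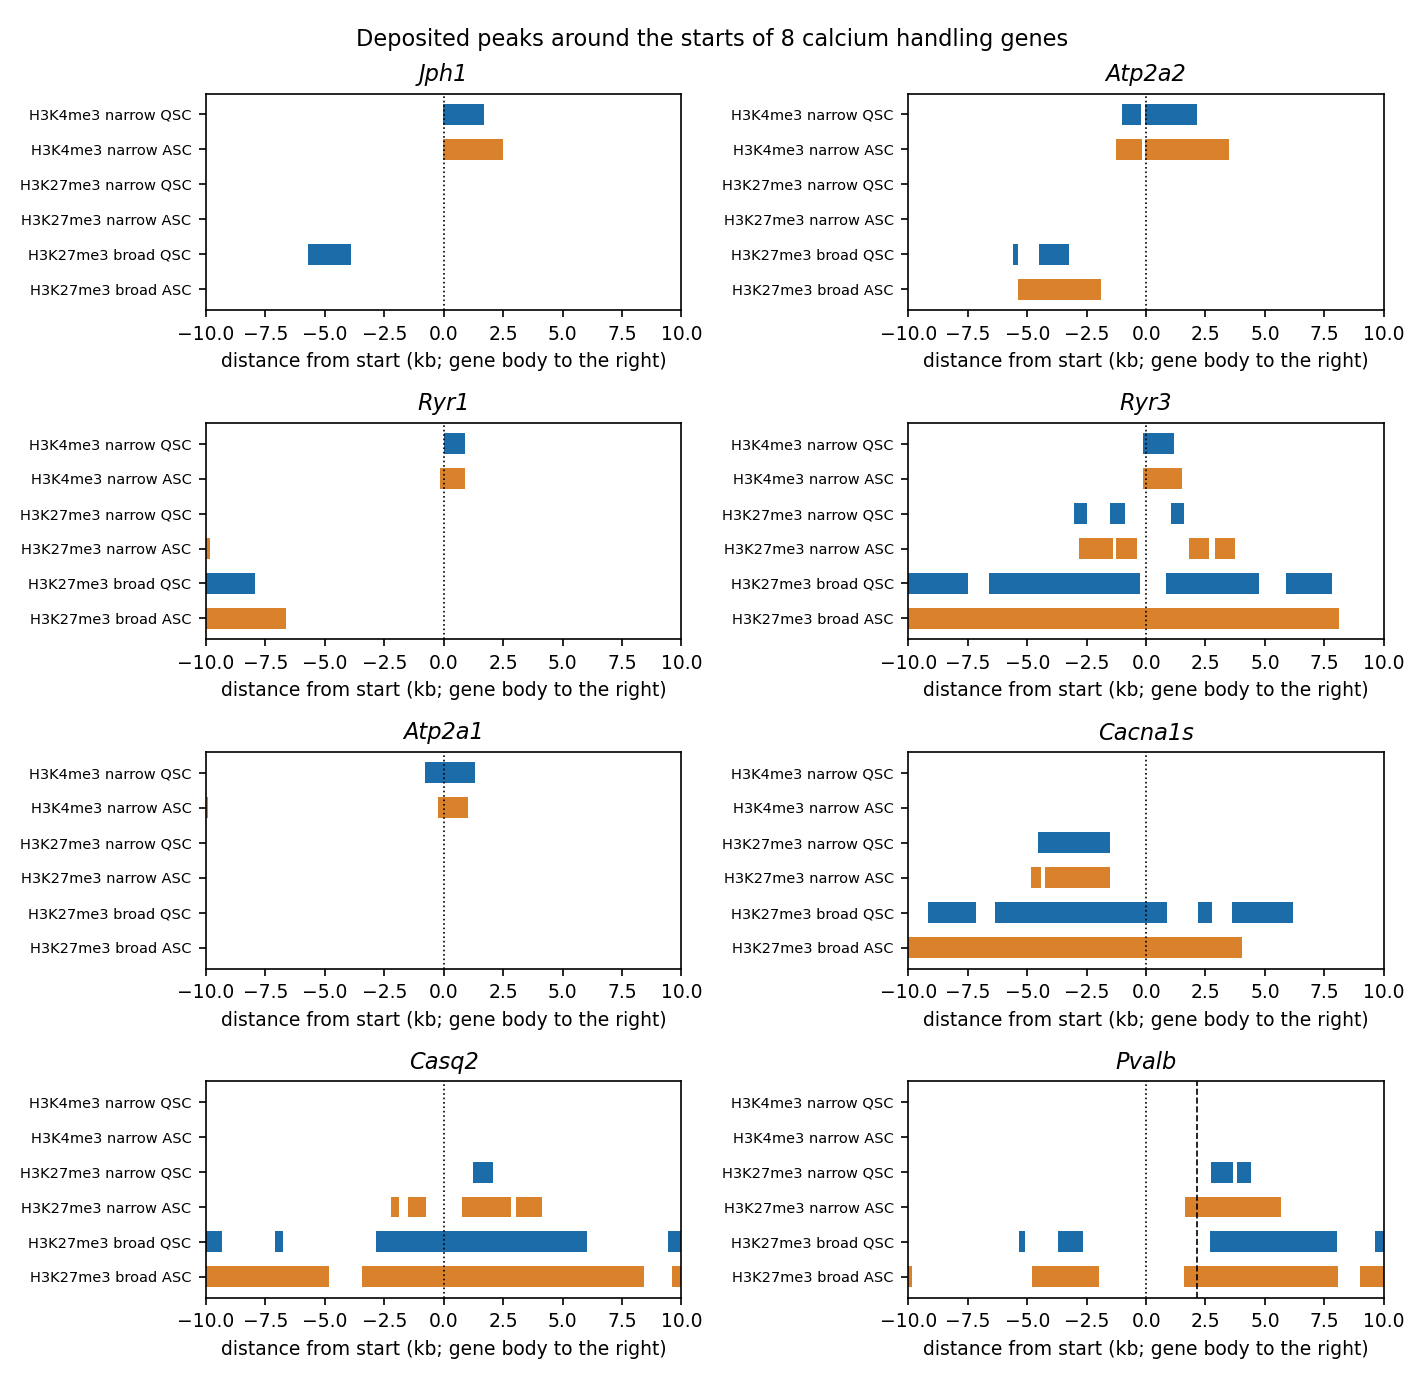
Deposited peaks within 10 kb of the start of 8 of the genes, as distance from the start in kb with the gene body to the right; each bar is a peak, in blue for QSC and orange for ASC. For Ryr3, Atp2a2 and Jph1 the origin is the higher-coordinate end of the record, and the dashed line in the Pvalb panel is the inner start, which the ASC narrow H3K27me3 peak of 4012 bp covers.

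Motifs bound by muscle regulators, and the general promoter motif TATAAA, were searched on both strands of the 7 promoters that the table gives for 6 of the genes. CANNTG, the E-box read by MYOD1 and related factors, was in 5 of 7, beside 69.0% of all promoters. CAGCTG, a form of the E-box and therefore counted in it too, was in 3 (Atp2a1, Cacna1s and Casq1), beside 15.6%. The MEF2 motif was in 2, those of Casq2 and the outer start of Pvalb, beside 2.74%. CATTCC, the core of the MCAT motif, was in 1, that of Cacna1s, beside 13.6%. TATAAA and the CArG box were in 0, beside 12.6% and 1.52%. These matches are letters in a window of 300 bases, and CAGCTG occurred in promoters with H3K4me3, with H3K27me3 and with neither mark.

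H3K4me3 domains at the starts were compared in length, and peak folds were not compared across lists. The lengths were not corrected for differences between the narrow lists, which covered 24.4 Mb in QSC and 35.4 Mb in ASC. The part of read depth and of the peak threshold in the lengths was not tested. Among the 5 genes with a domain in both states, 4 were longer in ASC, beside 90.8% of 11755 genes with a domain in both. The log2 ratio of ASC over QSC was 0.58 for Atp2a2, 0.54 for Jph1, 0.36 for Ryr3 and 0.31 for Ryr1. Their domains measured 3158 and 4723 bp, 1725 and 2510 bp, 1288 and 1656 bp, and 874 and 1080 bp in QSC and ASC. The median of the 5 was 0.36, against 0.54 over all such genes. Atp2a1 went the other way, from 2069 bp in QSC to 1264 bp in ASC, a log2 ratio of −0.71, and 1.05% of all such genes had a lower ratio. In the broad lists the Atp2a1 domain was longer in ASC instead, 8718 bp against 6788 bp, and extended towards Sh2b1, with a log2 ratio of 0.36. The broad lists also reversed Ryr1 (3167 and 1211 bp, log2 ratio −1.39) and brought Ryr3 to −0.04, while Atp2a2 (0.46) and Jph1 (0.69) stayed longer in ASC.

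**Figure D4:**
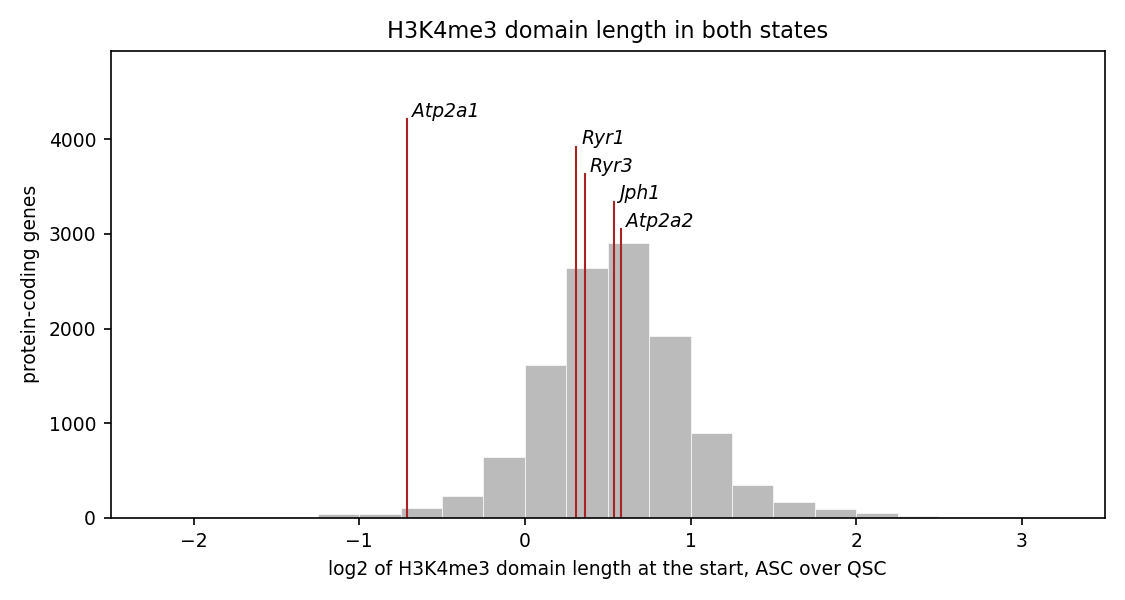
Histogram of the log2 ratio (ASC over QSC) of the H3K4me3 domain length at the start, in narrow lists with gaps of up to 1 kb merged, for 11755 protein-coding genes, of which 2 lie outside the axis; the y axis counts genes. Red lines mark the 5 calcium handling genes with a domain in both states, Atp2a1 at −0.71 and the other 4 between 0.31 and 0.58; line heights carry no value.

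H3K27me3 was measured as covered bases over the gene and its flanks. A broad peak lay in the window of 8 genes in QSC and 7 in ASC, beside 72.1% and 70.4% of all genes. Among genes at least as long as the shortest of the 10 the shares were 79.3% and 75.8%. H3K4me3 narrow peaks lay in the window of 6 genes in each state, beside 62.7% and 65.2% of all genes and 72.8% and 75.6% of those as long. They were the same 6 genes, with 0 called in QSC only (0.74% of all genes) or in ASC only (3.21%). The 10 genes are long, with a median of 63558.5 bp against 17169 bp, and a long window meets a peak more often. The covered share separated the genes widely. It was 42.3% or more for Cacna1s, Casq2 and Pvalb, between 12.9% and 16.0% for Ryr3, and 6.59% or less for the other 6 in both states. The covered bases were higher in ASC for 6 genes, beside 42.5% of all genes, and lower for Cacna1s and Jph1. H3K4me3 bases were higher in ASC for 4 genes (Ryr3, Atp2a2, Casq1 and Jph1), beside 59.5%, and lower for Ryr1 and Atp2a1. Those of Casq1, 1973 bp in QSC and 2003 bp in ASC, lay only in the flank peak at the starts of Pea15a and Gm17224. At Atp2a1 the ASC value of 1362 bp includes part of the flank peak at the start of Sh2b1.

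H3K27me3 domains, merged over gaps of up to 3 kb, gave no common direction. At Cacna1s the QSC domain was 15362 bp and the ASC domain 15602 bp, and at Pvalb they were 27810 and 28867 bp. At Ryr3 the domain was shorter in ASC (50416 and 33463 bp, log2 ratio −0.59). At Casq2 it was longer (8862 and 50658 bp, log2 ratio 2.52), and in ASC the merged domain took in an upstream peak of 24432 bp and 3 downstream peaks of 2361, 3151 and 2829 bp. QSC also had an upstream peak, of 14198 bp (fold 2.91), and downstream peaks, but gaps of more than 3 kb kept them out of the domain. The covered share of the Casq2 window was 42.3% in QSC and 48.8% in ASC. In all, 3 of the 4 were longer in ASC, beside 56.9% of 5836 genes, and their median log2 ratio was 0.04 against 0.05.

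A list of 60 other calcium handling genes was read in the same way at the start. H3K4me3 marked 49 of them in QSC and 50 in ASC, beside 54.4% and 57.0% of all genes. H3K27me3 marked 10 and 18, beside 30.3% and 35.5%. Both marks met at 6 in QSC and 13 in ASC, beside 9.41% and 15.0%, and 7 and 5 had neither, beside 24.7% and 22.5%. Of the store and store-operated entry genes, H3K4me3 marked 12 of 12 in both states, and of the mitochondrial uptake genes 4 of 4. Of the pump regulators and other pumps and exchangers it marked 4 of 9 in QSC and 3 in ASC. Of the excitation-contraction coupling genes it marked 18 and 20 of 22, and of the binding and signalling genes 11 of 13 in both states. The genes without an H3K4me3 narrow peak in either state were Sln, Pln, Strit1, Atp2b4, Slc8a1, Cav3, Ocm and Camk2a. Sln and Pln encode inhibitors of the SERCA pumps, Atp2b4 a plasma membrane pump and Slc8a1 a sodium-calcium exchanger.

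Some of the 60 genes had a call in a single state, beside 0.736% of all genes for H3K4me3 in QSC only and 3.29% in ASC only, and 3.64% and 8.85% for H3K27me3. Whether the 60 differ from the 10 in this was not tested. In the narrow lists H3K4me3 was called in QSC only at Stac3, an adaptor of the Cacna1s channel (fold 5.08), and at Mrln, which encodes the SERCA inhibitor myoregulin (5.81). It was called in ASC only at Hrc, a calcium-binding protein of the reticulum lumen (13.2), the membrane repair gene Dysf (5.24) and the channel subunit gene Cacng1 (3.97). In the broad lists, of these 5 genes Cacng1 alone kept a call in a single state. Broad H3K4me3 folds were 3.01 in QSC and 3.27 in ASC at Stac3 (−log10 q of 3.06 and 5.61), and 4.44 and 4.11 at Hrc (8.01 and 9.25). At Mrln they were 2.85 and 1.88 (−log10 q of 2.33 and 0.293), and at Dysf 1.87 and 2.54 (0.223 and 2.3). The ASC peak at Mrln and the QSC peak at Dysf thus had q-values above 0.05.

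H3K27me3 was called in ASC only at 8 genes and in QSC only at 0. The 8 were Stac3 (fold 2.68), Sypl2 (1.97), Itpr3 (1.8), Rcan1 (1.77), Slc8a1 (1.72), Atp2a3 (1.66), Strit1 (1.63) and Jsrp1 (1.53). The peak at Stac3 had a −log10 q of 2.33, and those at the others had values from 0.107 to 0.871, so that their q-values were above 0.05. At Hrc and Dysf, H3K27me3 was called in both states. The −log10 q was 1.21 in QSC and 2.02 in ASC at Hrc, and 0.83 and 0.713 at Dysf.

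Both marks were called in both states at the cardiac ryanodine receptor gene Ryr2, at Speg, Fkbp1b, Slc8a3 and Trpc1, and at Nfatc1, a calcineurin-regulated transcription factor. At Speg, Fkbp1b and Nfatc1 the H3K27me3 broad peaks had a −log10 q between 0.278 and 1.05, so their q-values were above 0.05. The narrow H3K27me3 lists held no peak within 1 kb of these starts. At Ryr2, Slc8a3 and Trpc1 the q-values were at most 0.05 in both states. Ryr2 had H3K4me3 folds of 4.66 in QSC and 5.6 in ASC and H3K27me3 folds of 2.84 and 3.58, so that it shared the pattern of Ryr3. In ASC the genes with both marks further included Jsrp1, Hrc, Sypl2, Dysf, Atp2a3, Itpr3 and Rcan1. Among these, Hrc alone had an H3K27me3 broad peak with a q-value of at most 0.05 in ASC (−log10 q of 2.02). The highest H3K4me3 folds in QSC belonged to the plasma membrane pump Atp2b1 (27.3), the lumenal chaperone Calr (24.2), the tubule-shaping gene Bin1 (23.7), the chaperone Canx (20.1) and the kinase Camk2g (20.1). In ASC they belonged to Atp2b1 (45.9), Calr (38.7), Bin1 (37.6), Camk2d (37.6) and the calcineurin subunit Ppp3ca (36.1). Domains were longer in ASC at 42 of the 47 genes with one in both states and shorter at 5, with a median log2 ratio of 0.37, against 0.54 and 90.8% longer over all genes with a domain in both.

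**Figure D5:**
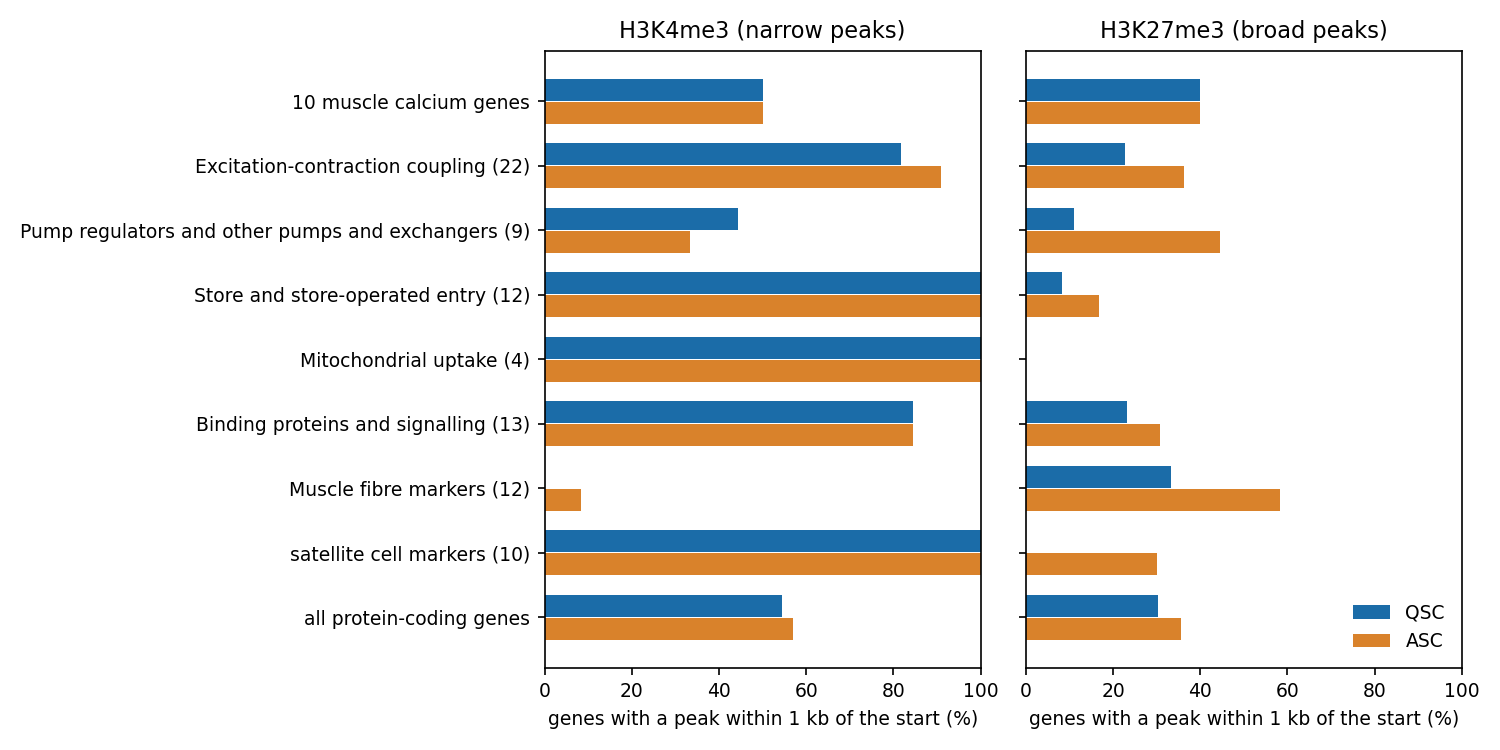
Percent of genes with an H3K4me3 narrow peak (left) or an H3K27me3 broad peak (right) within 1 kb of the start, for the 10 genes, the sets of other calcium handling genes, markers of fibres and satellite cells, and all protein-coding genes, with the number of genes in brackets. H3K4me3 marks 5 of the 10 genes in each state, all 12 store genes and all 10 satellite cell markers, and 0 or 1 of 12 fibre markers.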

How the data were processed

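Peaks of H3K4me3 and H3K27me3 ChIP-seq were analysed in QSC and ASC, grouped by the sample titles. Per the labels' protocols, antibody-bound chromatin of sonicated nuclei was tagmented (ChIPmentation) and sequenced on an Illumina instrument. The submitters' processing notes name the build mm10 and MACS2 2.1.1, Bowtie2 2.3.2, Trimmomatic 0.36, SAMtools 1.3, Picard 2.9.2, bedtools 2.26.0 and bcl2fastq 2.19, without settings. The authors deposited, per peak, its fold enrichment (a linear ratio) and the −log10 of its q-value, which were used here. Samples carry no file of their own here, and neither the input samples nor the signal tracks were used here.

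Gene records and promoters came from RefSeq tables on GRCm38.p6 (79.9% of genes have a promoter entry). Overlaps, covered bases and merged domains were computed in Python 3.11.15 with pandas 2.3.3 and numpy 2.4.6, tested on simulated peaks, and figures were drawn with matplotlib 3.10.9. The shares of all 21887 genes are the background. Because each list is pooled over replicates, no test was run, and intervals that need counts are not given. The genes, the other lists and the settings were chosen with earlier results of these data known. The rule for named genes took all 10 genes and, among the 60 others, those called in a single state, those with both marks, and the 5 highest H3K4me3 folds in each state. Genes without H3K4me3 in either state, and the markers Mylpf and Cd68, were named after their values were seen. Alternatives were the other list of each mark, peaks with a fold of 3 or more or with a −log10 q of 5 or more, lists of equal peak number or equal covered bases, other windows, overlaps and gaps, and, chosen after the data were seen, a q-value of at most 0.05.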

Additional observations from a re-analysis of the deposited data

How the results depend on the processing

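Of the planned recalculations of the summary values, 82 stayed within 1.5 times of the value reported (or kept its direction and size), 30 moved and 1 reversed. Of the single start calls, 292 stayed and 28 changed. Some of these recalculations could not change a value. Equal numbers or equal covered bases leave the smaller list whole, and a stricter threshold cannot add a call. The counts that stayed are therefore no measure of robustness. Shares of all genes were computed for the narrow and the broad lists, not for the other settings. With the broad lists, H3K4me3 start calls were added at Casq2 in QSC and at Casq1 and Pvalb in ASC. With equal covered bases in both states, the H3K4me3 start calls in ASC fell to 2 of the 10 genes from 5, without Ryr1, Ryr3 and Atp2a1, and Atp2a1 was also lost with equal numbers of peaks. The H3K4me3 share of the 10 windows together was 0.803% in QSC and 0.913% in ASC. It was 9.64% and 3.82% with the broad lists, and 0.548% in ASC with equal covered bases.

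H3K27me3 calls rest on weak broad peaks. Over the genome, 71 of 130668 broad peaks in QSC and 874 of 95819 in ASC reached a −log10 q of at least 5. Few genes of any kind can thus be called at that threshold, and the low counts below are no trait of the 10 genes. The window calls, 8 in QSC and 7 in ASC, became 4 in QSC with the narrow list. They became 0 and 1 at a −log10 q of at least 5, and likewise at a fold of at least 3. At a q-value of at most 0.05, chosen after the data were seen, they were 3 and 4. The covered share of the 10 windows, 11.7% and 13.7%, was 0.512% and 1.02% with the narrow lists and 0 and 0.388% at either stricter threshold. The start calls, 4 in each state, became 0 in QSC and 1 in ASC (Pvalb) at either stricter threshold. In QSC they were also 2 with the narrow list, 2 with an overlap of at least 1000 bp and 2 at a q-value of at most 0.05. The call of both marks at Ryr3 was lost in both states (0 genes) at a −log10 q of at least 5 and at a q-value of at most 0.05. The median log2 ratio of H3K27me3 domains, 0.04, was 0.77 without merging, −0.07 with gaps of up to 10 kb, 0.87 over the 2 genes with narrow domains and 0.22 with equal numbers of peaks. It had no value at a −log10 q of at least 5. For the 60 other genes, the H3K27me3 calls of 10 and 18 became 5 and 9 with narrow lists, and 0 and 2 at a −log10 q of at least 5. The cause of these changes was not tested.

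No paired analysis was possible because each list is pooled over its replicates, and leaving out a replicate could not be run for the same reason. Read depth is unknown, and so is the rule by which the lists were filtered. Peaks absent from a list therefore cannot be told apart from peaks below its threshold or removed by the filter.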
